A study of Mus musculus with 10 samples.

Results

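The genes of meiotic recombination and chromosome pairing were followed in testes of mice without MOV10, an RNA helicase of the cytoplasm that binds many transcripts. The set held 38 of the 55421 genes in the count files. It was a list of gene names named for their known function: 5 genes that act in making DNA double-strand breaks, 2 that choose or read the break sites, 10 of strand exchange, 10 of crossover formation, 4 of DNA damage signalling, 3 that watch over the chromosome axes and 4 that attach telomeres to the nuclear envelope. RNA-seq was from testes at 21 days after birth (P21), with 3 wild type (Mov10+/+) and 3 Mov10-/- libraries, each from a separate pair of testes. The Mov10-/- mice were global knockouts, in which Actb-Cre, expressed in nearly all cells, had removed the exons that encode the first helicase domain. They were on a mixed background of 129, C57BL/6 and FVB. A further 4 libraries were of RNA crosslinked to MOV10 in wild type P21 testes (CLIP-seq).

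During meiotic prophase, programmed breaks are cut by SPO11 and its partners at sites marked by PRDM9. The broken ends are resected, coated with recombinases and sent to search for the homologous chromosome, while telomeres tethered to the nuclear envelope move the chromosomes into alignment. Most breaks are repaired without exchange, and a few become crossovers that hold the homologs together until the first division. Many of these genes are transcribed mainly in spermatocytes, while those of general DNA repair, such as Brca1, Atm and H2afx, are also used in other cells. In whole testes, fewer cells of a type and less RNA per cell cannot be told apart.

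Levels are given in CPM, the share of the reads on genes that fell on the gene, as counts in 1000000 reads, after scaling between libraries by the TMM factors of edgeR. The RNA-seq libraries held 5083407 to 9230540 reads on genes, and 1 read stood for 0.108 to 0.197 CPM before that scaling. Mov10-/- replicate 3 was the shallowest, with 57.2% of its reads not aligned, against 26.5% to 35.9% in the other 5 libraries. Mov10 itself was at 114, 96.4 and 119 CPM in wild type replicates 1, 2 and 3 and at 29.0, 26.6 and 26.7 CPM in Mov10-/- replicates 2, 3 and 4. That log2 difference of -2.0 (SE 0.12) had an adjusted p of 0.00552 in the quasi-likelihood test of edgeR, adjusted over all genes tested by the Benjamini-Hochberg method. Values of 6 libraries are given below in this order, wild type first. A gene was called at a fold change over 2 with an adjusted p under 0.05 in this test.

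No recombination or pairing gene was called. Of the 38 genes, 37 passed the filter of 1 CPM, before TMM scaling, in at least 3 libraries and were tested, and 0 of them met the call, against 1 of 20240 genes tested (0.00494%), which was Mov10. The count of members was also 0 with DESeq2, with the exact test of edgeR and with limma voom, where 5.24%, 5.38% and 0.00988% of all genes tested were called. At an unadjusted p under 0.05, 1 member was higher in Mov10-/- testes (H2afx) and 0 were lower, while 5.57% of all genes tested were higher and 11.9% lower. In 2 members (Mei1 and H2afx) the 3 Mov10-/- libraries lay above all 3 wild type ones, and in 0 they lay below, where the shares of all genes tested were 11.9% and 14.1%.

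The differences of the members were small. Their log2 fold changes ran from -0.29 (Rnf212) to 0.52 (H2afx), with 24 above 0 and 13 below. The median was 0.047, beside 0.032 for all genes tested and 0.06 for the protein-coding genes tested, the kind to which all members belong. Adjusted p-values in the quasi-likelihood test lay between 0.247 and 0.998, and standard errors between 0.089 and 0.40. The 95% interval of the difference stayed within a 2-fold change either way for 36 of 37 members (97.3%), Mnd1 being the exception, and within 1.5-fold for 28 (75.7%). Among the 15183 genes tested whose wild type CPM lay in the range of the members, the shares were 75.1% and 43.6%. In 30 of 37 members the means of the genotypes differed by less than the range among the 3 wild type libraries. The share of all genes tested that met this was not counted. For a single gene, an exact permutation test of 3 against 3 libraries cannot give a p below 0.1.

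**Figure D1:**
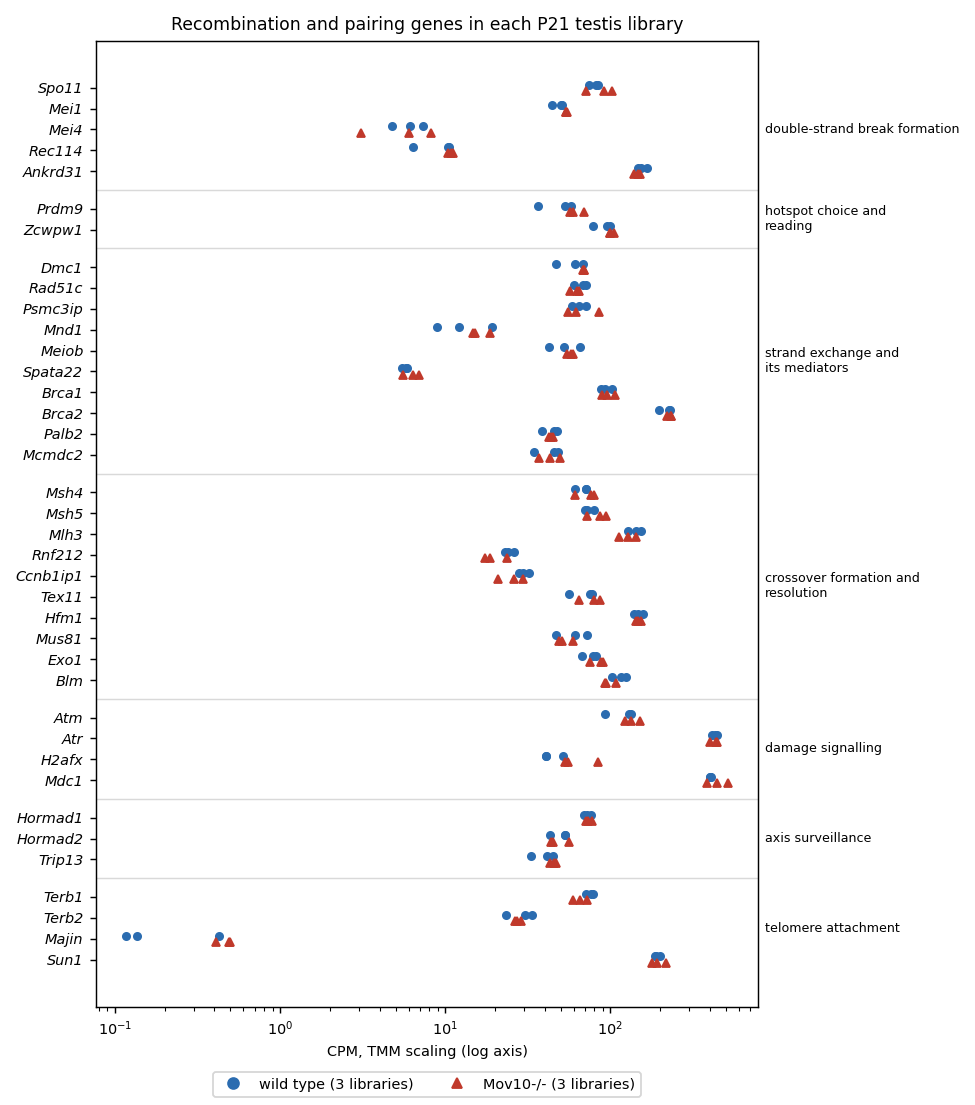
Level of each of the 38 genes in each RNA-seq library, in CPM on a log axis, with wild type as circles and Mov10-/- as triangles, grouped by role. The genotypes interleave for nearly all genes, Mei1 and H2afx being those tested whose triangles all lie to the right of the circles.

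**Figure D2:**
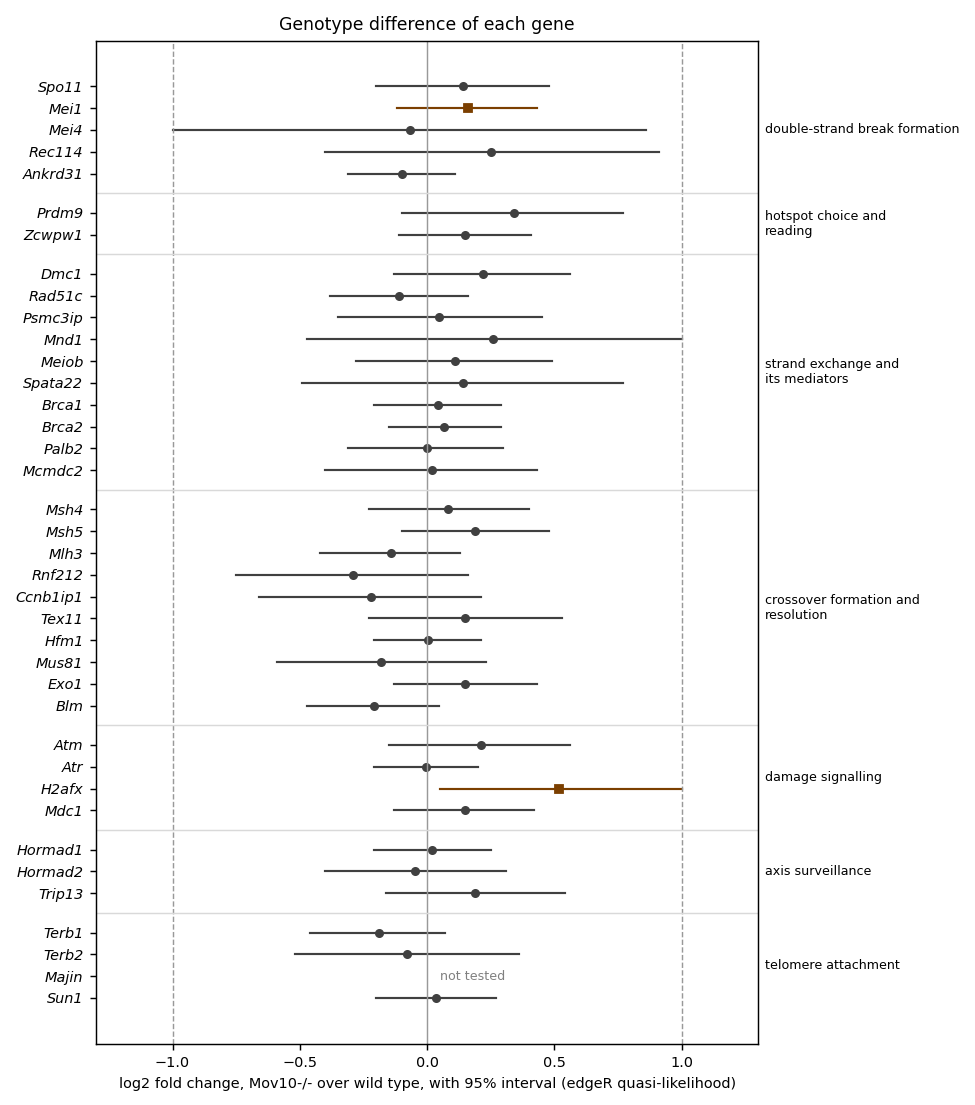
Log2 fold change of each gene, Mov10-/- over wild type, with its 95% interval from edgeR's quasi-likelihood test. Squares mark Mei1 and H2afx, whose genotypes did not overlap, dashed lines mark 2-fold changes, and the interval of H2afx alone lies wholly on one side of 0.

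Levels of different genes were compared per kb of exon length, as wild type means. Mdc1, the scaffold of damage signalling, led with 54.4 ± 0.349 CPM per kb (SD, n = 3). Hormad1, an axis protein of unsynapsed chromosomes, followed with 42.2 ± 2.08, Psmc3ip, a partner of the recombinases, with 35.8 ± 3.51, and H2afx, the histone variant phosphorylated around breaks, with 32.0 ± 4.64 CPM per kb. Psmc3ip and H2afx did not differ beyond their spread, nor did H2afx and the next gene, Meiob, at 29.6 ± 6.31 CPM per kb. Among the lowest tested were Rec114 at 7.13 ± 1.83, Palb2 at 5.98 ± 0.612 and Mei4 at 1.48 ± 0.316 CPM per kb. Spata22, at 4.47 ± 0.169 CPM per kb of all its exons, has no sure place in this order, since 80.5% of its exon bases are shared with another gene model on the same strand. The median over the tested members was 15.8 CPM per kb. Majin was listed at 1, 1 and 4 reads in wild type and 4, 2 and 4 reads in Mov10-/- libraries, too few for a test. The lengths were of the union of all annotated exons, which for Atr came to 23629 bases and lowers its value per kb.

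Promoter sequences from RefSeq (GRCm38.p6) were used for 30 of the 38 genes, and those of the other 8 were not analysed here. In the 250 bases before any listed start of a gene, 4 letter patterns were searched on both strands: CNCCTCAG, bound by the meiotic initiators STRA8 and MEIOSIN, AACTGNC, bound by the pachytene activator MYBL1, the E-box CACGTG and the cyclic AMP response element TGACGTCA. CNCCTCAG was found before 4 members (13.3%, against 7.39% of 27025 genes), AACTGNC before 2 (6.67%, against 12.1%), CACGTG before 2 (6.67%, against 6.86%) and TGACGTCA before 2 (6.67%, against 1.77%). None of these shares was tested. The 7 stretches below are shown because these are the members with a match to the STRA8 and MEIOSIN letters or to the cyclic AMP element, and Hormad1, which alone held 2 different patterns, of MYBL1 and the E-box. Each is given 5′ to 3′ on the strand of its gene with up to 30 bases on each side, and capitals mark the match or its reverse complement.
Prdm9, chr17:15564358-15564425, minus strand: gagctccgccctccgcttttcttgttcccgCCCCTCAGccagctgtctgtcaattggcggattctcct
Msh5, chr17:35046667-35046734, minus strand: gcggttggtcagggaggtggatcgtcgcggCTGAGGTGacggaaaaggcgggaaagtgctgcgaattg
Hfm1, chr5:106925919-106925986, minus strand: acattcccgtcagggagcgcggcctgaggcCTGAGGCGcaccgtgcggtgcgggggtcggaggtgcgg
Hormad2, chr11:4441154-4441221, minus strand: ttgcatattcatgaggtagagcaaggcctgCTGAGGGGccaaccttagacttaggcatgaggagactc
Rad51c, chr11:87404514-87404581, minus strand: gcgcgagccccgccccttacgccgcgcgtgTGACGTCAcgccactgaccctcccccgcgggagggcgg
Brca2, chr5:150522571-150522620, plus strand: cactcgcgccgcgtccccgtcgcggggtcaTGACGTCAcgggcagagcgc
Hormad1, chr3:95559590-95559676, plus strand: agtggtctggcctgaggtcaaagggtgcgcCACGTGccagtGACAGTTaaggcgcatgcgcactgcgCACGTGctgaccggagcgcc

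The matches began 41 bases before a listed start in Prdm9, 82 in Msh5, 66 in Hfm1, 109 in Hormad2, 45 in Rad51c and 20 in Brca2. Prdm9 and Rad51c each have another listed start, before which no pattern was found. The stretches of Msh5, Hfm1 and Rad51c lie inside the span of these genes in the annotation used for exon lengths. In Hormad1 the E-box letters began 57 and 20 bases before the first of its listed starts and those of MYBL1 46 bases before it. The 4 genes with CNCCTCAG had log2 differences of 0.34 (Prdm9), 0.19 (Msh5), 0.0031 (Hfm1) and -0.048 (Hormad2), and the pair with TGACGTCA had -0.11 (Rad51c) and 0.066 (Brca2). A match is a run of letters and not a measured site.

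Genes of double-strand break formation were not called, and their median log2 difference was 0.14 over 5 genes. Spo11 encodes the subunit that cuts the DNA. It was at 74.1, 81.9 and 84.4 CPM in wild type and 71.1, 103 and 91.5 CPM in Mov10-/- libraries, a log2 difference of 0.14 (SE 0.15). The lowest and the highest of these 6 values were both from Mov10-/- testes. Mei1, Mei4, Rec114 and Ankrd31 encode accessory proteins that let SPO11 act on the chromosome axes. Mei1 was at 44.1, 50.3 and 51.3 CPM in wild type and 54.5, 54.0 and 54.1 CPM in Mov10-/- libraries. The groups did not overlap, the log2 difference was 0.16 (SE 0.12) and the adjusted p was 0.525, with 0.511 to 0.995 over the alternative settings. Under library totals without TMM the Mei1 groups overlapped.

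Rec114 was at 10.6, 6.41 and 10.4 CPM in wild type and 11.2, 10.4 and 10.9 CPM in Mov10-/- libraries. Only wild type replicate 2 stood apart, and without it the log2 difference went from 0.25 (SE 0.28) to 0.062. Ankrd31 was at 148, 153 and 167 CPM against 140, 146 and 151 CPM, a log2 difference of -0.10 (SE 0.091) with overlapping groups. Mei4 was the least abundant member tested per kb, with 15 to 69 reads a library. Its 6.10, 4.77 and 7.38 CPM in wild type lay within the span of 8.15, 3.07 and 6.02 CPM in Mov10-/- libraries. The interval of its log2 difference, from -1.0 to 0.86, was the widest of the set. Adjusted p-values of the 5 genes lay between 0.525 and 0.940 in the quasi-likelihood test.

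Prdm9 encodes the zinc finger methyltransferase that sets hotspot positions, and Zcwpw1 encodes a reader of the histone marks that it places. Prdm9 was at 58.1, 36.4 and 53.0 CPM in wild type and 69.5, 57.1 and 59.7 CPM in Mov10-/- libraries. Its log2 difference of 0.34 (SE 0.19) was the second highest of the set, with an unadjusted p of 0.111 and an adjusted p of 0.396 in the quasi-likelihood test (0.283 to 0.881 over the alternative settings). Wild type replicate 1 lay within the Mov10-/- range, and wild type replicate 2 lay lowest. The log2 difference was 0.17 when wild type replicate 2 was left out, and 0.46, with an unadjusted p of 0.0498, when wild type replicate 1 was. Zcwpw1 was likewise lowest in wild type replicate 2, with 99.3, 78.5 and 94.8 CPM against 105, 99.4 and 99.2 CPM, and a log2 difference of 0.15 (SE 0.11) that fell to 0.065 without wild type replicate 2.

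Strand exchange had a median log2 difference of 0.056 over 10 genes, none of them called, with adjusted p-values of 0.485 to 0.998. Dmc1 encodes the meiotic recombinase. It was at 68.7, 47.0 and 61.4 CPM in wild type and at 68.2, 68.9 and 69.2 CPM in Mov10-/- libraries. The coefficient of variation was 0.766% among the Mov10-/- libraries and 18.7% among the wild type ones. Wild type replicate 1 lay inside the Mov10-/- range, and the log2 difference of 0.22 (SE 0.15) became 0.086 without wild type replicate 2. Psmc3ip and Mnd1 encode the subunits of the HOP2-MND1 complex that helps the recombinases pair DNA. Mnd1 was at 19.2, 8.86 and 12.2 CPM in wild type and 15.2, 18.6 and 14.7 CPM in Mov10-/- libraries. All its Mov10-/- values lay between wild type replicates 3 and 1, and its log2 difference of 0.26 (SE 0.32) became 0.044 without wild type replicate 2. Psmc3ip was at 64.8, 71.6 and 58.8 CPM against 55.4, 84.9 and 61.9 CPM, and its difference turned from 0.047 (SE 0.17) to -0.15 without Mov10-/- replicate 3.

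Meiob and Spata22 encode partners that bind single-stranded DNA with replication protein A. Meiob was at 65.3, 42.7 and 52.2 CPM in wild type and 58.0, 54.8 and 59.6 CPM in Mov10-/- libraries, with the Mov10-/- values inside the wild type range. Spata22 was at 5.86, 5.45 and 5.77 CPM against 5.56, 6.96 and 6.39 CPM, from 34 to 54 reads a library. Reads on the exon bases that it shares with another gene model may have been left out as ambiguous, so that its level is uncertain. Rad51c, which encodes a mediator of homologous recombination, was at 60.0, 71.2 and 67.9 CPM against 56.8, 62.8 and 64.6 CPM, a log2 difference of -0.11 (SE 0.12). Mcmdc2, which stabilizes the early strand invasions, was at 45.5, 34.5 and 48.0 CPM against 37.2, 42.8 and 49.8 CPM, with a difference of 0.018 (SE 0.18).

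The BRCA group loads the recombinases onto DNA, with PALB2 as the bridge between BRCA1 and BRCA2. Brca1 was at 102, 87.5 and 93.2 CPM in wild type and 106, 89.0 and 96.0 CPM in Mov10-/- libraries. Brca2 was at 229, 197 and 228 CPM against 232, 220 and 233 CPM. Palb2 was at 45.6, 38.8 and 47.4 CPM against 42.7, 44.0 and 45.1 CPM. The wild type and Mov10-/- values interleaved in all 3, and the log2 differences were 0.041 (SE 0.11), 0.066 (SE 0.096) and -0.00092 (SE 0.13).

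Crossover genes had a median log2 difference of -0.071 over 10 genes, 5 above 0 and 5 below, and none was called (adjusted p-values of 0.369 to 0.989). The lowest differences of the whole set were in this group. Rnf212 encodes a factor that stabilizes crossover intermediates, and Ccnb1ip1 encodes HEI10, another protein of crossover formation. Rnf212 was at 23.9, 22.9 and 26.1 CPM in wild type and 17.5, 23.5 and 18.6 CPM in Mov10-/- libraries. Mov10-/- replicate 3 lay inside the wild type range and the other pair below it, with a log2 difference of -0.29 (SE 0.20) and an adjusted p of 0.480 (0.356 to 0.995 over the alternative settings). With the size factors of DESeq2 in place of TMM the Rnf212 groups no longer overlapped. Ccnb1ip1 was at 29.4, 27.8 and 32.1 CPM against 26.1, 20.9 and 29.4 CPM, a difference of -0.22 (SE 0.19), and 12.4% of its exon bases lie in a non-coding gene on the same strand.

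Blm encodes a helicase that takes recombination intermediates apart. It was at 102, 124 and 116 CPM in wild type and 93.1, 94.5 and 108 CPM in Mov10-/- libraries. Only Mov10-/- replicate 4 passed the lowest wild type value, and the log2 difference of -0.21 (SE 0.11) had an unadjusted p of 0.0943 and an adjusted p of 0.369 (0.268 to 0.942 over the alternative settings). Without wild type replicate 1 it was -0.31 with an unadjusted p of 0.0427. Mus81, a nuclease of a minor crossover route, was at 46.8, 72.7 and 60.7 CPM against 48.7, 59.5 and 51.1 CPM. All its Mov10-/- values lay inside the wild type range, and the difference of -0.18 (SE 0.18) became -0.018 without wild type replicate 2. Mlh3, the MutL partner that marks crossover sites in pachytene, was at 127, 143 and 153 CPM against 113, 128 and 143 CPM, a difference of -0.14 (SE 0.12).

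The MutS pair that stabilizes crossover intermediates lay on the other side of 0. Msh4 was at 71.5, 61.5 and 71.3 CPM in wild type and 61.0, 75.9 and 79.9 CPM in Mov10-/- libraries. Msh5 was at 72.1, 70.1 and 79.1 CPM against 72.5, 94.5 and 86.4 CPM. Mov10-/- replicate 2 lay just below the wild type range in Msh4 and inside it in Msh5. The log2 differences were 0.084 (SE 0.13) for Msh4 and 0.19 (SE 0.13) for Msh5. Tex11, an X-linked crossover gene, was at 77.4, 56.0 and 75.1 CPM against 86.4, 64.2 and 80.0 CPM. Exo1, an exonuclease with a part in crossing over, was at 78.7, 67.1 and 82.2 CPM against 87.3, 75.3 and 89.9 CPM. Both had a log2 difference of 0.15 with overlapping groups. Hfm1, a helicase of crossover formation, was at 146, 140 and 158 CPM against 148, 143 and 154 CPM, a difference of 0.0031 (SE 0.090) whose interval ran from -0.21 to 0.21.

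Damage signalling held the highest difference of the set. H2afx encodes the histone variant H2AX, which is phosphorylated at breaks and over the unsynapsed X and Y chromosomes. It was at 40.6, 40.5 and 51.6 CPM in wild type and at 52.9, 83.7 and 55.3 CPM in Mov10-/- libraries. The groups did not overlap, but wild type replicate 3 lay just under Mov10-/- replicates 2 and 4, and Mov10-/- replicate 3 stood far above the rest. The log2 difference was 0.52 (SE 0.20, 95% interval 0.051 to 1.0), with an unadjusted p of 0.0342 and an adjusted p of 0.247 in the quasi-likelihood test (0.185 to 0.853 over the alternative settings). Without Mov10-/- replicate 3, the library with the most unaligned reads, it was 0.29 with an unadjusted p of 0.117. The part of that library's depth in the result was not tested. Libraries were made from polyadenylated RNA, whereas H2afx also has a transcript that ends in a histone stem-loop.

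ATM and ATR are the kinases that signal from breaks and from unsynapsed axes, and MDC1 spreads the signal along chromatin. Atm was at 130, 92.4 and 133 CPM in wild type and 151, 123 and 134 CPM in Mov10-/- libraries, and its log2 difference of 0.21 (SE 0.16) became 0.063 without wild type replicate 2. Atr was at 414, 440 and 431 CPM against 403, 443 and 436 CPM. It had the narrowest error of the set, with a difference of -0.0044 (SE 0.089) and an interval from -0.21 to 0.20. Mdc1 was at 406, 404 and 401 CPM against 385, 515 and 440 CPM. Its wild type values spread by 0.641% as a coefficient of variation and its Mov10-/- values by 14.6%, and the difference of 0.15 (SE 0.12) became 0.031 without Mov10-/- replicate 3.

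Axis surveillance and telomere attachment were close to 0, with median log2 differences of 0.018 over 3 genes and -0.080 over 3 genes. HORMAD1 and HORMAD2 mark unsynapsed axes, and the ATPase TRIP13 removes them on synapsis. Hormad1 was at 76.8, 69.7 and 72.4 CPM in wild type and 71.5, 73.0 and 77.0 CPM in Mov10-/- libraries. Hormad2 was at 53.1, 43.3 and 53.2 CPM against 45.0, 43.6 and 56.2 CPM. The values of each interleaved. Trip13 was at 44.8, 33.1 and 41.1 CPM against 43.3, 45.8 and 46.9 CPM, a difference of 0.19 (SE 0.15) that was 0.085 without wild type replicate 2. Hormad1 lies 9.21 Mb from Mov10 on chromosome 3, where Mnd1 and Msh4 also lie, at 20.6 and 49.0 Mb.

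TERB1, TERB2 and MAJIN join telomeres to the inner nuclear membrane, and SUN1 links them through the envelope to the cytoskeleton. Terb1 was at 71.6, 75.9 and 78.4 CPM in wild type and 65.6, 59.1 and 72.6 CPM in Mov10-/- libraries. Only Mov10-/- replicate 4 reached the wild type range, and the log2 difference of -0.19 (SE 0.11) had an adjusted p of 0.422. Terb2 was at 30.5, 23.3 and 33.5 CPM against 27.3, 26.4 and 28.9 CPM, with the Mov10-/- values inside the wild type range. Sun1 was at 188, 199 and 186 CPM against 178, 217 and 192 CPM, a difference of 0.034 (SE 0.10).

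Wild type replicate 2 stood apart in many members. It was the lowest of all 6 libraries in 21 of the 37 members tested (56.8%), where it was the lowest in 34.7% of all genes tested. It lay below the mean of the other pair of wild type libraries in 26 members. Mov10-/- replicate 2 was the lowest in 11 members (29.7%, against 30.2% of all genes tested), and Mov10-/- replicate 4 in 0 (against 5.78%). Without wild type replicate 2 the median log2 difference of the members was 0.02. The spread among libraries was alike in the genotypes, with a median coefficient of variation of 9.81% in wild type and 10.3% in Mov10-/-, and it was higher in wild type for 21 members.

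**Figure D3:**
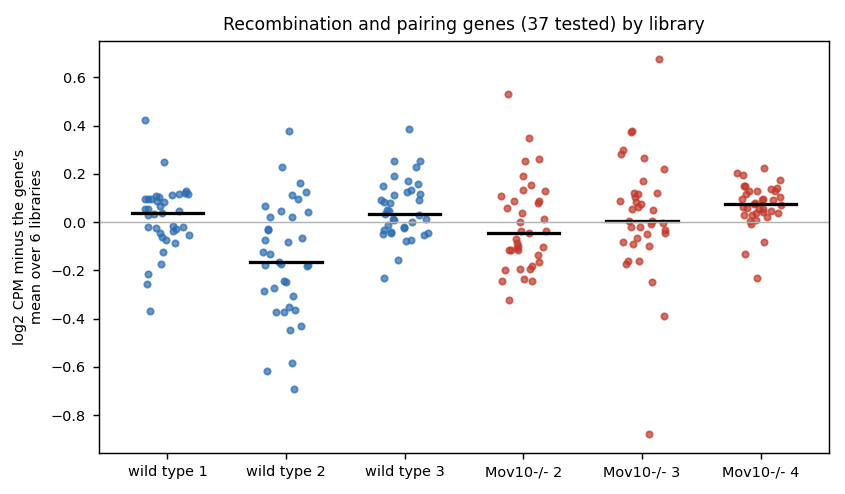
Log2 CPM of each of the 37 members tested minus that gene's mean over 6 libraries, by library, with bars at the median. Wild type replicate 2 has the lowest median, and 21 of the 37 genes have their lowest value there.

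No marker of another cell type was called in the quasi-likelihood test, and the counts that follow are at an unadjusted p. At an unadjusted p under 0.05 in that test, 5.57% of all genes tested were higher and 11.9% lower. Sums are over all genes of a list, tested or not. These were 14 genes for elongating spermatids, 15 for Sertoli cells, 9 for Leydig cells and 7 for epididymis and mesothelium. Of 18 round spermatid markers, 14 had an unadjusted p under 0.05 and lower levels in Mov10-/- testes, and their summed level was 701 to 1470 CPM in wild type and 416 to 697 CPM in Mov10-/- libraries. All 13 elongating spermatid markers tested had an unadjusted p under 0.05 and were lower, with sums of 245 to 1020 against 56.8 to 221 CPM. Both highest sums were those of wild type replicate 2, the library in which most members were lowest. The Mov10-/- libraries lay below all wild type ones in 12 of 18 round and 7 of 13 elongating spermatid markers. This held for 14.1% of all genes tested. The summed level of the members was 3220 to 3480 CPM in wild type and 3310 to 3570 CPM in Mov10-/- libraries. The part of the cell make-up in the members' values was not tested.

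Of the 13 Sertoli cell markers tested, 6 were higher at an unadjusted p under 0.05 and 0 lower, with sums of 951 to 1080 against 1160 to 1360 CPM. Rhox8 was at 0 reads in all 6 libraries and Rhox5 at 1 read in total. Whether reads on these genes were lost in counting was not tested. Of 7 adipocyte markers 3 were higher, with sums of 35.6 to 45.5 against 80.6 to 116 CPM, and of the 4 tested markers of epididymis and mesothelium 2 were higher, with sums of 27.3 to 36.5 against 42.8 to 91.1 CPM and Lcn8 at 0 reads in all 6 libraries. Endothelial and peritubular myoid cells had 1 of 6 markers higher each, with sums of 124 to 137 against 147 to 172 CPM and 414 to 436 against 436 to 588 CPM. Leydig cells (8 markers tested, sums of 438 to 687 against 546 to 769 CPM) and macrophages (7, sums of 208 to 341 against 266 to 383 CPM) had 0 either way at that p.

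As with the spermatid markers, no listed gene of germ cells before that stage was called. Spermatogonial markers had 0 of 18 at an unadjusted p under 0.05 (sums of 643 to 803 against 778 to 856 CPM), and markers of meiotic entry 2 of 12, both higher (943 to 1050 against 1080 to 1150 CPM). The sums of meiotic entry did not overlap. In 4 of its 12 genes the Mov10-/- libraries lay above all wild type ones, which held for 11.9% of all genes tested. Pachytene spermatocyte markers had 1 of 16, which was lower (1900 to 2310 against 1600 to 2380 CPM), and cell cycle genes of the meiotic divisions 1 of 26, also lower. The 22 genes of the synaptonemal complex and meiotic cohesin, which build the axes on which recombination takes place, had 0, with a median log2 difference of 0.047. Their sums were 2560 to 2600 CPM in wild type and 2600 to 2670 CPM in Mov10-/- libraries, and did not overlap before rounding.

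The wider recombination pathway was followed in 66 tested genes outside the set, such as replication protein A, the MRE11 complex and the checkpoint clamp. None was called, 1 was higher and 2 were lower at an unadjusted p under 0.05, and the median log2 difference was 0.0058. A pair of them met that p without overlap of the genotypes. Wrn, which encodes a helicase of the RecQ family as Blm does, was at 123, 132 and 104 CPM in wild type and 74.7, 77.3 and 93.0 CPM in Mov10-/- libraries, a log2 difference of -0.55 (SE 0.13) with an unadjusted p of 0.00323 and an adjusted p of 0.15. Sun2, which encodes a membrane partner of SUN1, was at 120, 103 and 119 CPM against 154, 124 and 139 CPM, with a difference of 0.29 (SE 0.11), an unadjusted p of 0.0376 and an adjusted p of 0.255.

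**Figure D4:**
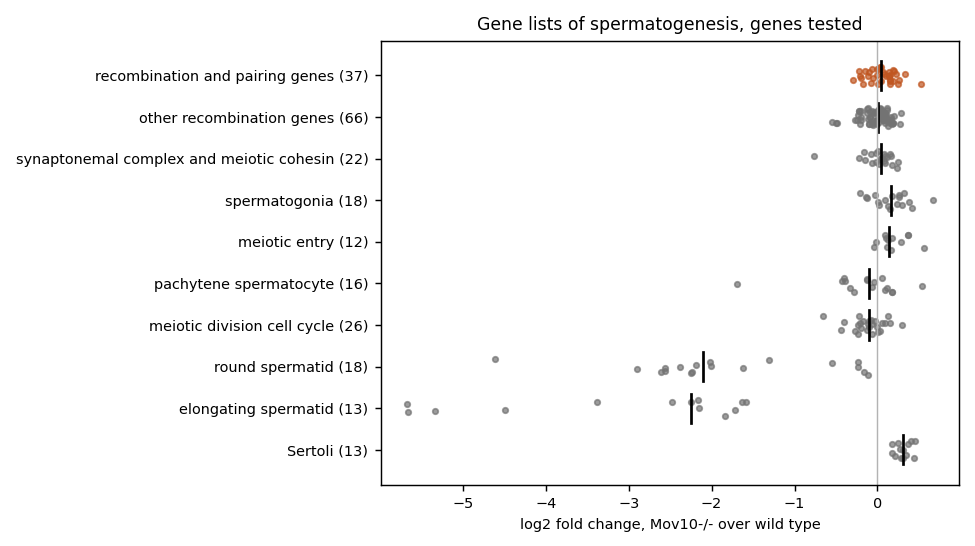
Log2 fold change, Mov10-/- over wild type, of the genes tested in 10 lists, with 1 point a gene and a bar at the median. The recombination and pairing genes and the other recombination genes lie around 0, while the round and elongating spermatid lists have medians of -2.11 and -2.25.

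CLIP-seq gave few reads on these genes, and 99.5% to 99.6% of the reads of each library were not aligned. The libraries held 3948, 3424, 3404 and 4934 reads on genes for replicates 1, 2, 3 and 5, of which 8, 5, 7 and 2 fell on members. Replicates 1, 2 and 3 differed by less than the sampling noise of their counts (chi-square of 0.219 to 0.237 per degree of freedom, against 4.33 to 18.8 between RNA-seq libraries of a genotype) and were counted as 1 sample. Of the 38 members, 5 had a read in any library (13.2%), where 18.1% of the genes tested in RNA-seq had one. Msh5 had 3, 3, 3 and 0 reads, Atr 4, 1, 2 and 0, and Hormad2 1, 1, 2 and 0. Blm and Mdc1 had 1 read each, in replicate 5. The other 33 members had 0 reads, which at a limit of 3 reads a library allows no statement that MOV10 does not bind them, and no ratio to the RNA-seq level was formed.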

How the data were processed

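The files deposited by the authors hold unnormalized read counts, 1 value for each Ensembl gene and library. For RNA-seq their methods and processing notes name a poly(A) stranded kit, adapter trimming, STAR on mm10 and HTSeq on Ensembl v99. The strand setting of the counting was not given in the sources used here. Exon bases shared with antisense genes made up 26.9% of those of Rec114 and 21.2% of those of Psmc3ip. Whether reads on these bases were counted or left out as ambiguous is therefore not known. Gene names, exon lengths and exon overlaps came from another annotation of the same build. It held 55240 of 55421 genes, all 38 members and 252 of 253 list genes. Replicates are separate testis pairs, and p-values measure the spread between them.

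Genes above 1 CPM in at least 3 of 6 RNA-seq libraries were tested with edgeR 4.0.16 (TMM, quasi-likelihood test, Benjamini-Hochberg over all genes tested) in R 4.3.3. Counting error alone limits a count of 0 to 3 reads. Alternatives were DESeq2 1.42.0, edgeR's exact test, limma 3.58.1 (voom), other scalings and filters, a replicate block and each library left out. The members and lists were chosen with earlier results of these data known. All members are named, with Mov10 and those other recombination genes with an unadjusted p under 0.05 and no overlap. The analysis was tested on simulated data.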

Additional observations from a re-analysis of the deposited data

How the results depend on the processing

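No member was called under any of the 14 alternatives, and the median log2 difference of the members stayed between 0.02 and 0.097. The lowest adjusted p of any member was 0.185. Over all genes, those called lower and higher (1 and 0) became 988 and 51 with DESeq2, 1018 and 70 with edgeR's exact test, 1 and 1 with limma voom, 3 and 3 with library totals, and 5 and 5 with no filter on low values. Leaving out a library gave 0 to 1 lower, with 0 without Mov10-/- replicate 3 or 4. The genotypes shared only replicate numbers 2 and 3, which name no common animal or batch (correlations of deviations -0.463 and -0.344). The fit with a replicate block called 145 lower and 36 higher genes, with 0 members at an unadjusted p under 0.05. It compares the genotypes only within replicate numbers 2 and 3, as wild type replicate 1 and Mov10-/- replicate 4 have no partner. The highest adjusted p-values given above over the alternative settings, for Mei1, Prdm9, Rnf212, Blm and H2afx, came from this fit.

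Members higher at an unadjusted p under 0.05 (1) became 0 with voom and 0 to 2 without 1 library, and lower ones (0) became 0 to 1. Members without overlap became 1 higher with library totals, 1 lower with DESeq2's size factors and 1 lower with no filter. Without 1 library they were 2 to 10 higher and 0 to 7 lower, where 14.4% to 19.5% and 14.5% to 21.9% of all genes tested did not overlap. They were 10 and 7 (27.0% and 18.9%) without wild type replicate 1, against 19.5% and 19.4% of all genes, 10 and 1 (27.0% and 2.7%) without Mov10-/- replicate 2, against 18.1% and 15.8%, and 8 and 1 (21.6% and 2.7%) without Mov10-/- replicate 3, against 19.2% and 21.9%. The lower count was 3 (8.11%) without wild type replicate 2, against 14.5% of all genes. It was 4 (10.8%) without Mov10-/- replicate 4, against 17.6%, and 0 without wild type replicate 3, against 17.8%. No such share was counted for the unadjusted p-values of these alternatives, or for members without overlap under other scalings and filters.

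Of 518 alternative values of single members, 32, in 12 members, changed sign, at most to 0.22 in size, and 23 of these came from leaving out a library. Psmc3ip was -0.0016 with voom, Palb2 0.0022 with library totals and 0.015 with the block, Mcmdc2 -0.03 with the block, and Atr 0.00041 with library totals. Hfm1 was -0.0075 with DESeq2, -0.0081 with its size factors, -0.0078 with no filter and -0.033 with the block. Without 1 library the ranges were Mei4 -0.39 to 0.22, Psmc3ip -0.15 to 0.17, Meiob -0.023 to 0.26, Brca1 -0.026 to 0.098, Palb2 -0.076 to 0.046, Mcmdc2 -0.11 to 0.12, Hfm1 -0.031 to 0.042, Atr -0.044 to 0.035, Hormad1 -0.012 to 0.043, Hormad2 -0.17 to 0.018, Terb2 -0.21 to 0.023 and Sun1 -0.048 to 0.097. Majin (1 to 4 reads a library) had too few reads to test, and the largest standard errors were those of Mei4 (0.40), Mnd1 (0.32) and Rec114 (0.28).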
